A study of Bos taurus with 27 samples.

Results

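The comparison of 9 calves first fed colostrum 12 h after birth (TRT12) with 9 calves fed at birth (TRT0) is described here, 18 of the 27 calves of the series. The calves were chosen by their treatment label, and the dam of each calf, a primiparous heifer (H) or a multiparous cow (C), entered the comparison as a second term. Each treatment held 4 H calves and 5 C calves. A gene was tested when it reached 1 CPM (its count divided by all gene counts of the calf, on the usual scale of counts per 1e6) in at least 5 of the 9 calves of both treatments, which left 14076 of 24616 genes.

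All calves were male Holsteins taken from the dam at birth and killed at 51 h of age, when a piece of colon was taken for RNA sequencing. They were given the same pooled, heat-treated colostrum by tube, at 0 h in TRT0, 6 h in TRT6 and 12 h in TRT12, and milk replacer began 12 h after that meal. A TRT12 calf had therefore been fed for a shorter time when sampled, and delay and time since feeding cannot be told apart in this design. The series was made to ask how the delay affects the mucosal immune system of the colon. The TRT6 calves are given only as values beside the others, since a TRT6 comparison would share the TRT0 calves.

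Colostrum is the first milk, rich in immunoglobulin G and growth factors, and a newborn calf is born with little antibody of its own. Large proteins cross the gut wall for a short period after birth, before the intestine closes to them. The colon is lined by absorptive colonocytes, mucus-secreting goblet cells and dividing crypt cells, which rest on connective tissue, smooth muscle, nerves and resident immune cells, and the pieces used here contained RNA from all of these. In such bulk tissue, fewer cells of a type and less RNA per cell cannot be told apart.

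The gene counts of the 18 calves summed to between 1314579 and 4202593, and 3 counts made 0.714 to 2.28 CPM (counting error alone). Each calf was kept as 1 replicate, since no 2 of them shared a set of counts. The libraries were run in 3 sequencing lanes. Lanes 1, 2 and 3 held 2, 5 and 2 TRT0 calves and 4, 3 and 2 TRT12 calves. Lane 1 held no TRT0 C calf and lane 3 no TRT0 H and no TRT12 C calf. Values within a lane have no parity term, so within lane 3 treatment and dam parity cannot be told apart. Epithelial genes of the colon were present in every calf: the colonocyte marker CA1 (ENSBTAG00000032236) and the goblet cell product CLCA1 (ENSBTAG00000008161) did not fall below 12.5 and 107 CPM. The small-intestinal apolipoprotein APOA4 (ENSBTAG00000019770) did not exceed 19.9 CPM, whereas the peptidase ANPEP (ENSBTAG00000016881), also used as a small-intestinal marker, ranged from 86.6 to 1666 CPM. Identifiers were named from the study's own tables of core genes and of module genes, which cover 4046 identifiers and mostly abundant ones. Of the tested genes, 3743 carried a symbol.

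No gene passed the threshold between TRT12 and TRT0. With edgeR's quasi-likelihood test, 0 of 14076 genes (0%) reached an adjusted p of 0.10 with a fold change of 1.2, and the lowest adjusted p was 0.372. At an unadjusted p under 0.05 there were 1358 genes, 751 higher in TRT12 (5.34%) and 607 lower (4.31%). The likelihood ratio test called 1 gene, the exact test on treatment alone called 2, limma voom called 0 and DESeq2 called 91. In the text below, a gene or list is therefore described by its values, and "higher" or "lower" gives the side of the TRT12 estimate without a call.

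Among genes with a symbol, 374 of 3743 (9.99%) were at an unadjusted p under 0.05 on the higher side and 136 (3.63%) on the lower side. These shares, and the median log2 fold change of 0.05 over the symbol genes, are the background for the lists below, since list members could be found only through a symbol. Over all tested genes the median was −0.0041, and the middle 50% lay between −0.15 and 0.13. The 95% interval of the difference stayed within 2-fold for 12546 genes (89.1%) and within 1.5-fold for 8375 genes (59.5%). These intervals give the size of difference that 9 calves per treatment leave possible, and they are not a limit of detection.

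**Figure D1:**
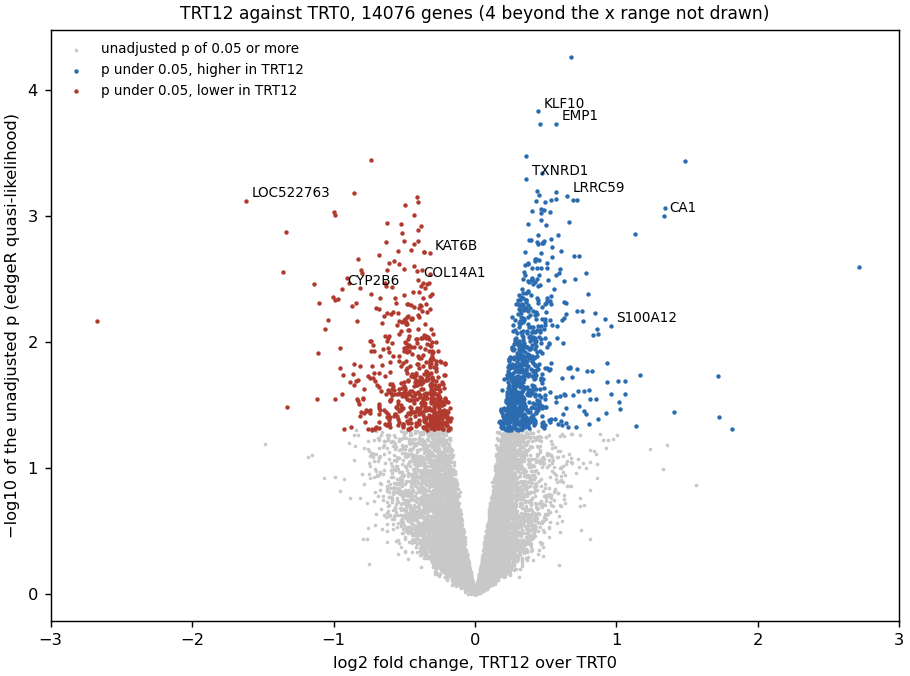
Each point is 1 of the tested genes, with the log2 fold change of TRT12 over TRT0 on the x axis and −log10 of the unadjusted p on the y axis. The 751 blue points (higher) lie mostly below a log2 fold change of 1, the 607 red points (lower) mostly above −1, and 4 genes beyond the x range are not drawn.

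The symbol genes at the top of the higher side carried functions in growth control, redox balance, protein synthesis and metabolism. KLF10 (ENSBTAG00000014396), a zinc finger transcription factor induced by TGF-beta, ranged from 51.6 to 76.5 CPM in TRT0 (median 66.0) and from 75.4 to 98.7 CPM in TRT12 (median 88.1). Every TRT12 calf was above the TRT0 median and the ranges overlapped only at their ends. Its log2 fold change was 0.45 ± 0.10 (SE; edgeR adjusted p = 0.372), and its mean in TRT6 was 78.6 ± 10.7 CPM. EMP1 (ENSBTAG00000036078), an epithelial membrane protein of the tetraspan family, ranged from 37.4 to 55.0 CPM in TRT0 (median 48.1) and from 51.8 to 92.2 CPM in TRT12 (median 63.9). All 9 TRT12 calves again exceeded the TRT0 median, at a log2 fold change of 0.57 ± 0.13 (edgeR adjusted p = 0.372).

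A pair of genes of the thioredoxin system stood among these. TXNRD1 (ENSBTAG00000013912), the thioredoxin reductase of the cytosol, ranged from 108 to 142 CPM in TRT0 (median 134) and from 125 to 188 CPM in TRT12 (median 161), a log2 fold change of 0.36 ± 0.09. PRDX1 (ENSBTAG00000003642), a peroxiredoxin that removes hydrogen peroxide, ranged from 107 to 145 CPM in TRT0 (median 127) and from 119 to 208 CPM in TRT12 (median 182), a log2 fold change of 0.47 ± 0.12. In both genes 8 of the 9 TRT12 calves lay above the TRT0 median. The list of oxidative stress and detoxification genes had 13 tested members with a median log2 fold change of 0.24. Of these, 4 (30.8%, against 9.99% of all symbol genes) were at an unadjusted p under 0.05 and higher. PRDX2 (ENSBTAG00000012062), another peroxiredoxin, stood at 0.29 ± 0.09 and the sulfotransferase SULT1A1 (ENSBTAG00000008635) at 0.36 ± 0.15.

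A colonocyte gene followed. CA1, a carbonic anhydrase typical of mature colonocytes, ranged from 12.5 to 140.0 CPM in TRT0 (median 27.3) and from 48.6 to 248 CPM in TRT12 (median 113). Its difference of 1.34 ± 0.35 was the largest among these higher genes, and 1 calf in each treatment stood far above the others. Without a calf at a time the log2 fold change of CA1 stayed between 1.13 and 1.82, and its mean in TRT6 was 77.5 ± 43.2 CPM.

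The remaining genes of this set take part in protein synthesis, glycolysis and sugar metabolism. LRRC59 (ENSBTAG00000006072), a ribosome-binding protein of the endoplasmic reticulum (ER), ranged from 38.3 to 65.1 CPM in TRT0 (median 48.5) and from 34.5 to 118 CPM in TRT12 (median 85.3), with a log2 fold change of 0.65 ± 0.17. PFKP (ENSBTAG00000002683), a phosphofructokinase of glycolysis, ranged from 42.0 to 70.2 CPM in TRT0 (median 53.7) and from 42.1 to 113 CPM in TRT12 (median 84.4), with a log2 fold change of 0.57 ± 0.15. In these 2 genes the spread in TRT12 was wide, and the lowest TRT12 calf lay near or below the lowest TRT0 calf. TARS (ENSBTAG00000014261), the threonyl-tRNA synthetase, stood at 0.43 ± 0.11. UGDH (ENSBTAG00000014521), which makes the sugar nucleotide UDP-glucuronate, ranged from 60.2 to 100.2 CPM in TRT0 (median 71.8) and from 72.2 to 136 CPM in TRT12 (median 101), with a log2 fold change of 0.53 ± 0.14. The proteasome subunit PSMA5 (ENSBTAG00000020641) stood at 0.50 ± 0.13, the heparan sulfate proteoglycan GPC4 (ENSBTAG00000020644) at 0.44 ± 0.11, the thioredoxin-related membrane protein TMX2 (ENSBTAG00000002404) at 0.45 ± 0.11 and HN1L (ENSBTAG00000002209) at 0.36 ± 0.09.

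All 15 symbol genes that the naming rule took on the higher side had an edgeR adjusted p of 0.372. Each kept a positive value within each of the 3 lanes, in H and in C calves, and when any single calf was left out. DESeq2 placed each of the 15 at an adjusted p of 0.10 or less. These genes were taken for their small p in the same 18 calves, so a kept sign and the DESeq2 value are no independent support.

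**Figure D2:**
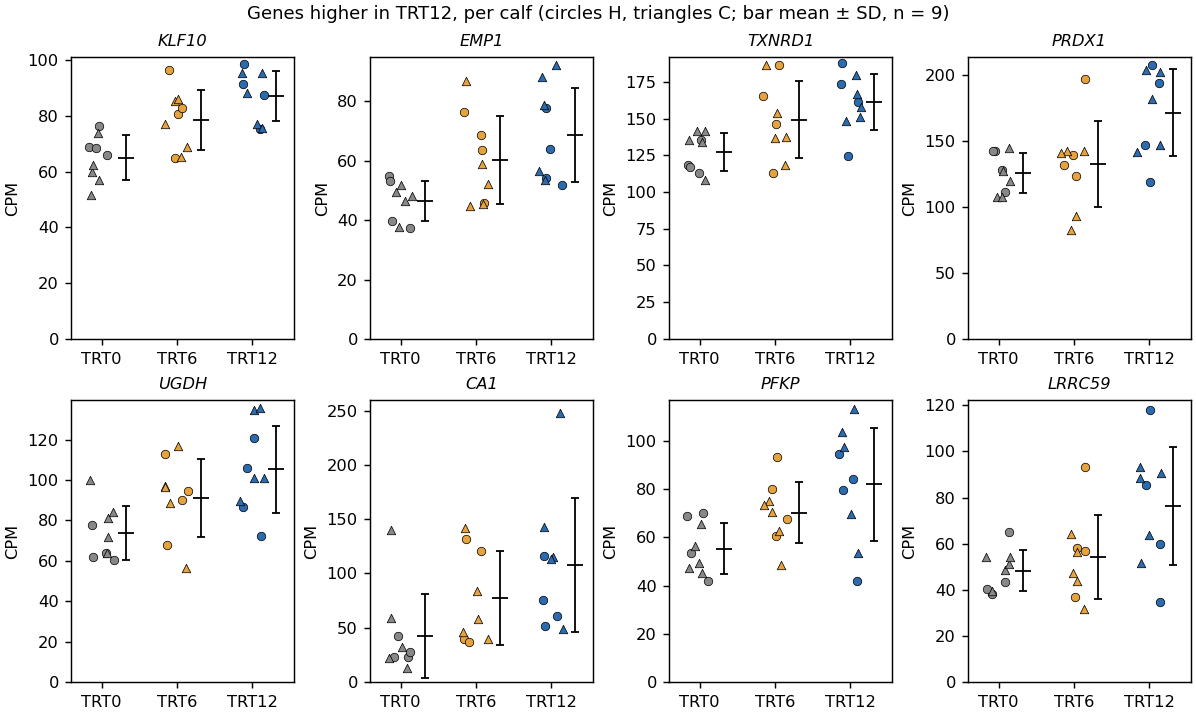
CPM per calf (y axis) of 8 genes that were higher in TRT12, by treatment (x axis), with circles for H calves, triangles for C calves and a bar for the mean ± SD of 9 calves. The TRT12 points lie above most TRT0 points in each gene, as in KLF10 (75.4 to 98.7 against 51.6 to 76.5 CPM), and the treatments overlap in all 8.

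Genes of protein folding lay mostly on the higher side. Of 18 tested ER chaperones and unfolded protein response genes, 11 (61.1%, against 9.99% of all symbol genes) were at an unadjusted p under 0.05 and higher, and 0 were lower. The median log2 fold change of the list was 0.32. The summed CPM of the list ranged from 3507 to 4719 in TRT0 (median 4117) and from 3473 to 6371 in TRT12 (median 5532), so the lowest TRT12 calf was no higher than the lowest TRT0 calf. In TRT6 the sum ranged from 3021 to 6471 CPM (median 4189.8). The count of 11 stayed between 9 and 11 when a calf was left out, and the list median was 0.25, 0.47 and 0.23 within lanes 1, 2 and 3.

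HYOU1 (ENSBTAG00000010322), an ER chaperone of the Hsp70 class, ranged from 88.2 to 149.6 CPM in TRT0 (median 104) and from 84.2 to 202 CPM in TRT12 (median 150.3), a log2 fold change of 0.44 ± 0.13. PDIA4 (ENSBTAG00000017143), a disulfide isomerase, ranged from 168 to 289 CPM in TRT0 (median 227) and from 174 to 422 CPM in TRT12 (median 321), a log2 fold change of 0.44 ± 0.14. MANF (ENSBTAG00000031797), a secreted ER stress protein, ranged from 18.7 to 50.5 CPM in TRT0 (median 31.1) and from 24.03 to 69.2 CPM in TRT12 (median 48.4), a log2 fold change of 0.53 ± 0.17. For each of these 3 genes 7 or 8 of the 9 TRT12 calves exceeded the TRT0 median while the ranges overlapped widely. Heat shock proteins of the cytosol and mitochondria gave a similar picture. Of 11 tested members, 6 (54.5%) were at an unadjusted p under 0.05 and higher and 0 lower, with a median of 0.33. HSPA9 (ENSBTAG00000011419), the mitochondrial Hsp70, stood at 0.33 ± 0.10, HSP90AA1 (ENSBTAG00000006270), the inducible Hsp90, at 0.39 ± 0.12 and HSPE1 (ENSBTAG00000012589), the mitochondrial cochaperonin, at 0.35 ± 0.12. Within lanes 1, 2 and 3 the heat shock median was 0.09, 0.48 and 0.33. All 11 tested heat shock genes and 17 of the 18 ER genes had positive values, and the lists share 0 genes.

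Genes of energy metabolism encoded in the nucleus were also on the higher side. In glycolysis, 10 of 16 tested genes (62.5%) were at an unadjusted p under 0.05 and higher and 0 lower, and the median was 0.27. ENO1 (ENSBTAG00000013411), enolase, ranged from 260.1 to 385 CPM in TRT0 (median 325) and from 283 to 470.4 CPM in TRT12 (median 457), with a log2 fold change of 0.37 ± 0.11. The hexokinase HK1 (ENSBTAG00000012380) stood at 0.31 ± 0.11 and the triose-phosphate isomerase TPI1 (ENSBTAG00000019782) at 0.30 ± 0.12, and 2 genes of the list also belong to the hypoxia list below. The list median was 0.13, 0.30 and 0.43 within lanes 1, 2 and 3. The count of 10 dropped to 4 without the calves of lane 3, and to 6 without any 1 of TRT0 replicates 3, 5 and 8 or TRT12 replicates 2 and 6.

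In oxidative phosphorylation, 11 of 25 nuclear genes (44%) were at an unadjusted p under 0.05 and higher and 0 lower, with a median of 0.22. COX6A1 (ENSBTAG00000012788), a subunit of cytochrome oxidase, ranged from 100.2 to 139.8 CPM in TRT0 (median 114) and from 118 to 191 CPM in TRT12 (median 138). All TRT12 calves were above the TRT0 median, at a log2 fold change of 0.38 ± 0.12. Subunits of ATP synthase stood at 0.39 ± 0.14 for ATP5G3 (ENSBTAG00000002944), 0.32 ± 0.12 for ATP5B (ENSBTAG00000013315) and 0.31 ± 0.11 for ATP5A1 (ENSBTAG00000002507). Within lanes 1, 2 and 3 the list median was 0.08, 0.31 and 0.25. The count of 11 became 6 without TRT12 replicate 6 or 9, and 7 without any 1 of TRT0 replicates 2, 3, 7 and 8 or TRT12 replicates 2 and 5. The 13 genes encoded on the mitochondrial genome gave another picture, with 0 at an unadjusted p under 0.05 and a median of 0.00. Their sum ranged from 27725 to 41641 CPM in TRT0 and from 31819 to 41470 in TRT12. COX2 (ENSBTAG00000043556), one of them, had 2279 ± 224 CPM in TRT0 and 2447 ± 335 CPM in TRT12 (SD, n = 9 each).

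Lipid and sterol genes had smaller shares. Of 17 cholesterol synthesis genes, 5 (29.4%) were at an unadjusted p under 0.05 and higher and 0 lower, with a median of 0.23. NSDHL (ENSBTAG00000009231), a sterol dehydrogenase, ranged from 31.9 to 48.3 CPM in TRT0 (median 35.1) and from 34.7 to 67.8 CPM in TRT12 (median 53.2), with a log2 fold change of 0.45 ± 0.13. The sterol isomerase EBP (ENSBTAG00000009287) stood at 0.33 ± 0.13. The count became 9, 10 and 8 without TRT0 replicate 1, TRT0 replicate 4 and TRT12 replicate 3. Lipid uptake genes reached 3 of 9 (33.3%) with a median of 0.27. Among these, ACSL5 (ENSBTAG00000006707), an acyl-CoA synthetase, ranged from 80.7 to 94.4 CPM in TRT0 (median 87.7) and from 92.0 to 164 CPM in TRT12 (median 104), with a log2 fold change of 0.35 ± 0.11, and FABP1 (ENSBTAG00000018054), a fatty acid binding protein, stood at 0.46 ± 0.16. Without TRT12 replicate 4 the median of the lipid uptake list was −0.02. Fatty acid oxidation reached 2 of 12 genes (16.7%), led by ACADVL (ENSBTAG00000003072) at 0.23 ± 0.09 and CPT2 (ENSBTAG00000014649) at 0.23 ± 0.11. In amino acid metabolism 2 of 13 (15.4%), the aspartate aminotransferases GOT2 (ENSBTAG00000007172) at 0.28 ± 0.11 and GOT1 (ENSBTAG00000011960) at 0.21 ± 0.08, were at that level. The fatty acid oxidation count was 1 without any 1 of TRT0 replicates 1, 2, 3, 5, 7 and 8 or TRT12 replicates 4, 5, 6, 8 and 9, 5 without TRT0 replicate 9 and 4 without TRT12 replicate 1. The amino acid count was 4 without TRT0 replicate 9 or TRT12 replicates 1 or 3 and 5 without TRT12 replicate 7. Handling of short-chain fatty acids had 0 of 7, with a median of 0.07.

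Epithelial genes lay on the higher side. All 10 tested general epithelial markers had positive values, 3 of them (30%) at an unadjusted p under 0.05, with a median of 0.21. VIL1 (ENSBTAG00000018543), the villin of the brush border, ranged from 287 to 397 CPM in TRT0 (median 333) and from 312 to 515 CPM in TRT12 (median 393), a log2 fold change of 0.34 ± 0.10. The cadherins CDH17 (ENSBTAG00000021964) and CDH1 (ENSBTAG00000015991) stood at 0.29 ± 0.13 and 0.22 ± 0.10. The epithelial sum ranged from 3013 to 4030 CPM in TRT0 and from 3049 to 5242 in TRT12. Within lanes 1, 2 and 3 the list median was 0.13, 0.18 and 0.34. The epithelial count of 3 became 1 without the calves of lane 3 or without any 1 of TRT0 replicates 1, 2 and 7 or TRT12 replicates 6, 8 and 9, and 6 without TRT12 replicate 1.

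Colonocyte genes reached 3 of 10 (30%), among them CA2 (ENSBTAG00000017733), a carbonic anhydrase, at 0.62 ± 0.29. Without TRT12 replicate 7, at 251 CPM, it stood at 0.34 (−0.18 in H and 1.25 in C with all calves). The list of goblet cell and mucin genes reached 2 of 8 (25%), CLCA4 (ENSBTAG00000017357) at 0.66 ± 0.25 and CLCA1 at 0.53 ± 0.22. CLCA4 is not particular to goblet cells, so of these 2 only CLCA1 is read as a goblet cell gene. AGR2 (ENSBTAG00000024406), a mucin-folding isomerase, stood at 0.34 ± 0.22. Values in this list ranged from −0.14 to 0.66 with a median of 0.27. The count of the goblet cell and mucin list was 1 without the calves of lane 3, TRT0 replicate 8 or TRT12 replicate 9, and 0 without TRT12 replicate 8. Crypt and proliferation genes reached 3 of 9 (33.3%), with the replication helicase subunits MCM5 (ENSBTAG00000015595) at 0.51 ± 0.18 and MCM6 (ENSBTAG00000015172) at 0.28 ± 0.11 and the mitotic kinase AURKA (ENSBTAG00000013009) at 0.34 ± 0.15. This count was 5 without TRT0 replicate 1 or TRT12 replicates 2 or 3. Ion and water transport genes reached 5 of 20 (25%), with a median of 0.23. The sodium pump subunit ATP1B3 (ENSBTAG00000014140) stood at 0.41 ± 0.14, the exchanger regulator SLC9A3R1 (ENSBTAG00000011382) at 0.42 ± 0.17 and the chloride cotransporter SLC12A2 (ENSBTAG00000009637) at 0.29 ± 0.12. Without TRT12 replicate 9 SLC9A3R1 stood at 0.26. The transport count was 3 without the calves of lane 3 or TRT12 replicate 9, 8 without TRT0 replicate 9 and 9 without TRT12 replicate 1. Junction genes reached 2 of 17 on the higher side (11.8%), CDH1 and CLDN7 (ENSBTAG00000019448) at 0.31 ± 0.12. On the lower side there was 1 (5.88%), JAM2, described below. The count of 2 was 1 without the calves of lane 3 or any 1 of TRT0 replicates 2, 3 and 7 or TRT12 replicates 2, 6, 8 and 9. Enteroendocrine genes had 0 of 4, with CHGA (ENSBTAG00000009836) at 0.14 ± 0.16.

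Of 20 tested fibroblast and matrix genes, 19 had negative values and 1 (5%, against 3.63% of all symbol genes) was at an unadjusted p under 0.05, the laminin LAMA4 (ENSBTAG00000008817) at −0.24 ± 0.10. The list median was −0.14 over all calves, −0.39 in H calves and 0.11 in C calves, and 0.0052, −0.06 and −0.34 within lanes 1, 2 and 3. The genes POSTN (ENSBTAG00000012409) and DCN (ENSBTAG00000003505), matrix proteins, stood at −0.28 ± 0.15 and −0.23 ± 0.13. The summed list ranged from 17979 to 31481 CPM in TRT0 and from 14187 to 29697 in TRT12. Smooth muscle had 0 of 14 genes at that level and a median of −0.04, with sums of 9062 to 16820 CPM in TRT0 and 9717 to 18188 in TRT12. Its myosin MYH11 (ENSBTAG00000015988) stood at −0.10 ± 0.13, and at 0.028 without the calves of lane 3. Enteric neuron and glia genes had a median of −0.08 over 5 genes and endothelial genes 0.00 over 5, including PECAM1 (ENSBTAG00000012066) at −0.18 ± 0.12. The median sum was 3696 CPM in TRT0 and 3979 in TRT12 for epithelial genes and 19099 and 17539 CPM for fibroblast and matrix genes, with overlapping ranges, and the part of these sums in the values of the gene groups above was not tested.

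**Figure D3:**
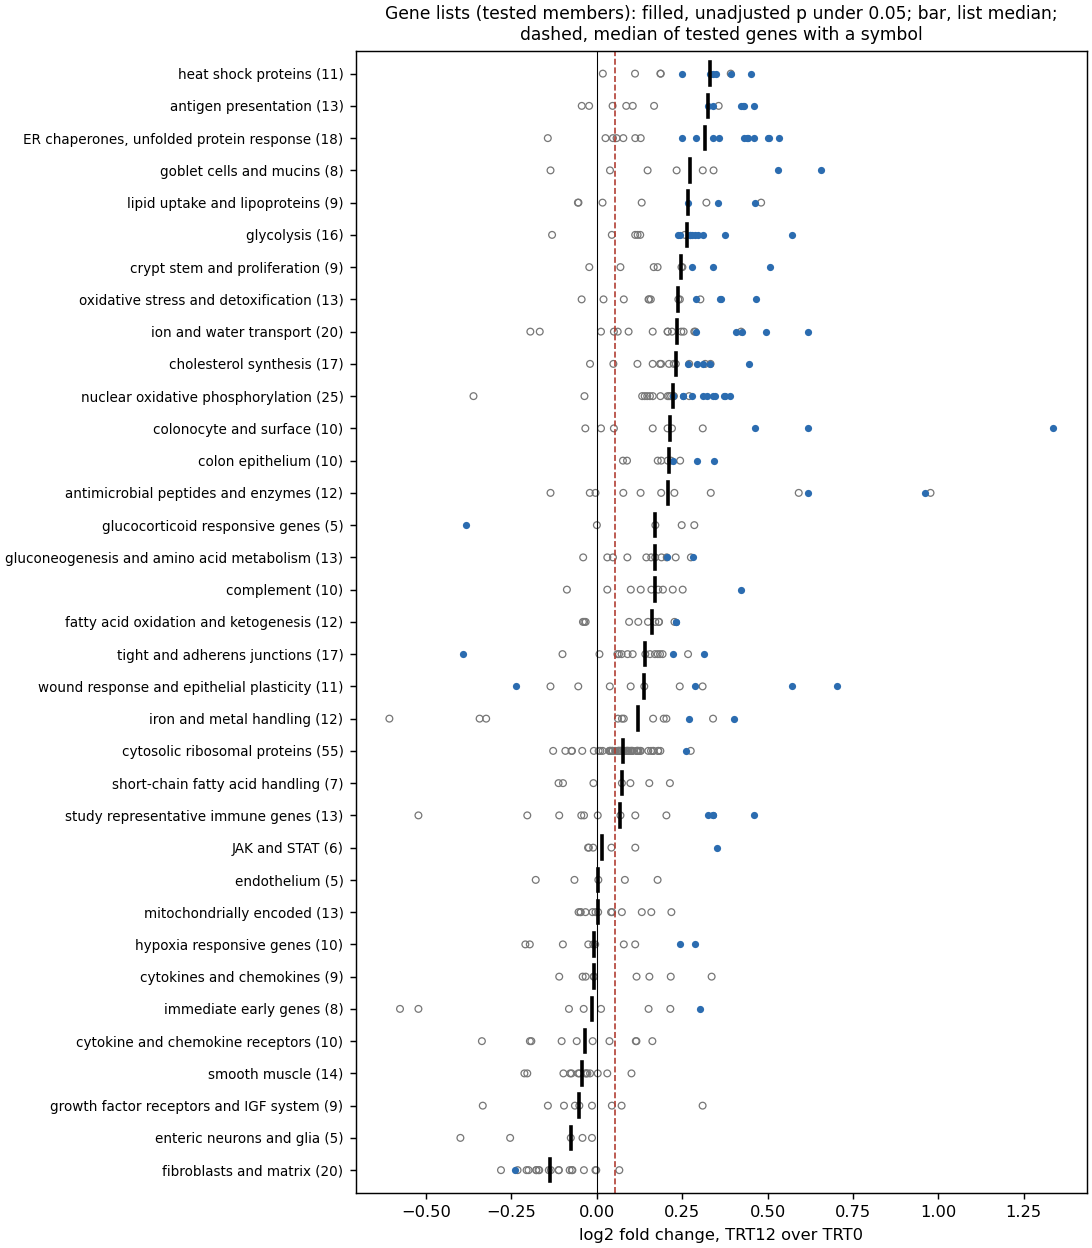
Log2 fold change of TRT12 over TRT0 (x axis) for the tested members of each list with 5 or more (rows, number tested in parentheses), filled when the unadjusted p was under 0.05, with a black bar at the list median and a dashed line at the median of the symbol genes (0.05). Heat shock, antigen presentation and ER chaperone lists have the highest medians (0.33, 0.33 and 0.32) and fibroblast and matrix genes the lowest (−0.14).

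The symbol genes at the top of the lower side were of mixed function. KAT6B (ENSBTAG00000002920), a histone acetyltransferase, ranged from 56.8 to 91.2 CPM in TRT0 (median 81.1) and from 49.2 to 77.1 CPM in TRT12 (median 60.1). All 9 TRT12 calves were below the TRT0 median, with a log2 fold change of −0.32 ± 0.09 (edgeR adjusted p = 0.372), and the mean in TRT6 was 69.8 ± 13.2 CPM. COL14A1 (ENSBTAG00000013369), a collagen bound to fibrils, ranged from 181 to 261 CPM in TRT0 (median 208) and from 99.5 to 231 CPM in TRT12 (median 168), with a log2 fold change of −0.40 ± 0.12. HOXA5 (ENSBTAG00000012211), a homeobox factor of body patterning, ranged from 19.7 to 33.1 CPM in TRT0 (median 27.5) and from 10.7 to 30.1 CPM in TRT12 (median 18.1), with a log2 fold change of −0.48 ± 0.15. In the last 2 genes 8 of 9 TRT12 calves were below the TRT0 median.

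CYP2B6 (ENSBTAG00000003871), a cytochrome P450 that oxidises drugs and steroids, ranged from 9.44 to 62.02 CPM in TRT0 (median 25.6) and from 5.86 to 39.98 CPM in TRT12 (median 10.3). Most TRT12 calves lay below the TRT0 median and 1 H calf lay at 39.98 CPM, and the log2 fold change was −0.94 ± 0.29, with within-lane values of −1.42, −1.19 and 0.09. EIF4E3 (ENSBTAG00000018862), a cap-binding translation factor, ranged from 3.99 to 9.27 CPM in TRT0 (median 6.31) and from 1.47 to 5.75 CPM in TRT12 (median 3.80), with a log2 fold change of −0.80 ± 0.24. JAM2 (ENSBTAG00000000603), a junctional adhesion molecule, ranged from 18.6 to 32.2 CPM in TRT0 (median 27.9) and from 14.5 to 23.3 CPM in TRT12 (median 20.6), with a log2 fold change of −0.39 ± 0.13. LOC522763 (ENSBTAG00000001308), with no name beyond its locus, ranged from 2.06 to 23.98 CPM in TRT0 (median 4.07) and from 1.47 to 3.61 CPM in TRT12 (median 2.38). Its difference was −1.62 ± 0.42, with 2 TRT0 calves, both H, above 20 CPM and no other calf of either treatment above 5.66 CPM. SH3RF2 (ENSBTAG00000006762) stood at −0.52 ± 0.14, the mitochondrial carrier SLC25A43 (ENSBTAG00000001007) at −0.63 ± 0.19 and the peptidase NLN (ENSBTAG00000016903) at −0.47 ± 0.15. The bromodomain protein ATAD2B (ENSBTAG00000017255) stood at −0.37 ± 0.12, HECA (ENSBTAG00000024595) at −0.34 ± 0.11, the gasdermin GSDMC (ENSBTAG00000017478) at −0.37 ± 0.12, the zinc finger gene ZNF182 (ENSBTAG00000046774) at −0.58 ± 0.19 and KLHL24 (ENSBTAG00000017450), of the kelch family, at −0.48 ± 0.16.

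The 15 named lower genes all had an edgeR adjusted p of 0.372. They kept a negative value in H and in C calves, and 14 did so in each of the 3 lanes, the exception being CYP2B6. Since these genes too were taken for their small p in the same calves, a kept sign is no independent support. DESeq2 placed 2 of them, KAT6B and COL14A1, at an adjusted p of 0.10 or less and gave none for 10. The only gene whose treatments did not overlap in CPM was the unnamed ENSBTAG00000003740, singled out after its values were seen. It had 57.3 ± 5.22 CPM in TRT0 and 42.2 ± 7.05 CPM in TRT12 (SD, n = 9 each), which makes 1 of 14076 genes (0.0071%) on the lower side and 0 (0%) on the higher side. Its log2 fold change was −0.41 ± 0.10 and its edgeR adjusted p was 0.372.

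**Figure D4:**
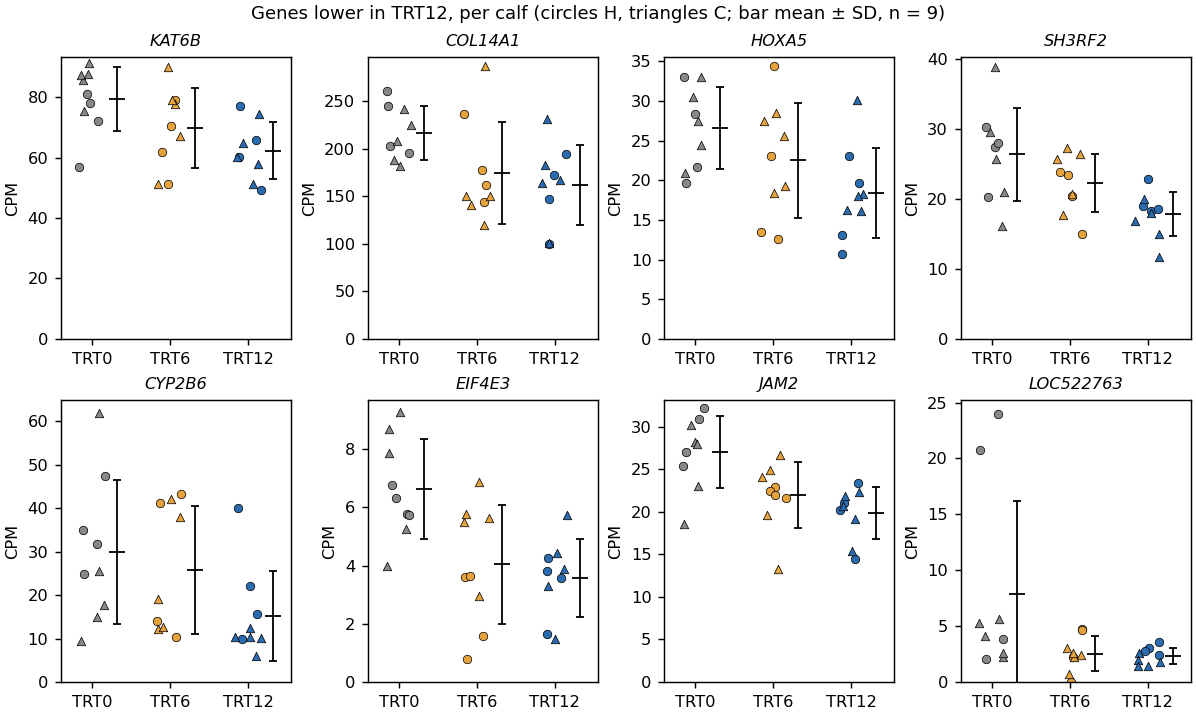
CPM per calf (y axis) of 8 genes that were lower in TRT12, by treatment (x axis), with circles for H calves, triangles for C calves and a bar for the mean ± SD of 9 calves. The points overlap between treatments in each gene, and the difference of LOC522763 comes with 2 TRT0 calves above 20 CPM.

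Immune genes were measured in part, since few carried a symbol. FCGRT (ENSBTAG00000013926), the receptor that carries immunoglobulin G across cells, ranged from 121 to 190.5 CPM in TRT0 (median 165.9) and from 148 to 199 CPM in TRT12 (median 166.2). The log2 fold change was 0.09 ± 0.10 with a 95% interval of −0.11 to 0.29. PIGR (ENSBTAG00000019798), which carries immunoglobulin A into the lumen, ranged from 823 to 1929 CPM in TRT0 (median 1323) and from 677 to 1812 CPM in TRT12 (median 1348), with a log2 fold change of 0.03 ± 0.18 and an interval of −0.34 to 0.39. The treatments overlapped over most of their ranges in both genes. The estimate for PIGR changed side with the scaling, being −0.00837 with library totals in place of TMM factors and −0.015 with lane as a term.

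In antigen presentation, 6 of 13 genes (46.2%) were at an unadjusted p under 0.05 and higher and 0 lower, with a median of 0.33. PSME1 (ENSBTAG00000021395), an activator of the proteasome, ranged from 62.2 to 80.2 CPM in TRT0 (median 66.6) and from 72.2 to 151 CPM in TRT12 (median 81.9). The highest TRT12 calf, replicate 1, stood apart, and the log2 fold change of 0.42 ± 0.12 was 0.32 at its lowest when a calf was left out. TAPBP (ENSBTAG00000016828), which loads peptides on class I molecules, stood at 0.33 ± 0.11, and PDIA3 (ENSBTAG00000017196) and CALR (ENSBTAG00000015114), which also belong to the ER list, at 0.43 ± 0.14 and 0.46 ± 0.14. The list shares 3 genes with the ER list, and its median was 0.21, 0.34 and 0.33 within lanes 1, 2 and 3.

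Interferon-stimulated genes depended on single calves. Of 4 tested, 2 (50%) were at an unadjusted p under 0.05 and higher, among them IRF1 (ENSBTAG00000031231) at 0.41 ± 0.20. PARP14 (ENSBTAG00000016656) stood at 0.40 ± 0.20. TRT12 replicate 1, an H calf of lane 3, had the highest value of all 18 in both, with 239.6 CPM of IRF1 and 300.5 CPM of PARP14. Without it IRF1 stood at 0.21 and PARP14 at 0.20, 0 of the 4 were at that level and the list median went from 0.40 to 0.20. Without TRT0 replicates 3, 6, 7 or 9 or TRT12 replicates 3 or 6 the count was also 0, and it was 1 without TRT0 replicates 2, 5 or 8 or TRT12 replicate 2. It was 0 with limma voom and with library totals in place of TMM factors.

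Of the antimicrobial genes, 2 of 12 (16.7%) were at an unadjusted p under 0.05 and higher. PI3 (ENSBTAG00000039028), the elastase inhibitor elafin, ranged from 369 to 814 CPM in TRT0 (median 554) and from 247 to 1159 CPM in TRT12 (median 972), with a log2 fold change of 0.62 ± 0.21. S100A12 (ENSBTAG00000012638), a calcium-binding protein of neutrophils and the only neutrophil marker of 15 listed that could be found, ranged from 15.1 to 93.8 CPM in TRT0 (median 26.7) and from 14.8 to 113 CPM in TRT12 (median 71.6). Its log2 fold change was 0.96 ± 0.33, and within lanes it was −0.02, 1.403 and 1.28. The antimicrobial count was 5 without TRT0 replicate 6 and 4 without TRT12 replicate 4. DUOX2 (ENSBTAG00000016234), an epithelial oxidase that makes hydrogen peroxide, stood at 0.98 ± 0.49, with TRT12 replicate 1 at 63.9 CPM against at most 17.6 CPM in the other TRT12 calves and an estimate of 0.48 without it. In complement 1 of 10 genes (10%, near the 9.99% of all symbol genes) was at that level, the inhibitor CFI (ENSBTAG00000034501), which ranged from 51.8 to 104 CPM in TRT0 (median 94.4) and from 84.7 to 154 CPM in TRT12 (median 119) and stood at 0.42 ± 0.12.

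Cytokine and chemokine genes had 0 of 9 at an unadjusted p under 0.05 and a median of −0.01, and their receptors 0 of 10 and a median of −0.04. CXCL14 (ENSBTAG00000006694), a chemokine of epithelia, stood at 0.22 ± 0.18 and TGFBR2 (ENSBTAG00000019832), a TGF-beta receptor, at −0.10 ± 0.07. In the signalling pathway of cytokine receptors, the kinase JAK1 (ENSBTAG00000003147) stood at 0.04 ± 0.10. The NF-kB list had 0 of 3. No member of the pattern recognition list and none of the red blood cell list had an identifier at hand. Markers of T and NK cells, macrophages, mast cells, B and plasma cells and adipocytes were represented by 1 or 2 genes each, with 0 at an unadjusted p under 0.05.

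Of the 20 genes that the study names one by one, 13 had an identifier at hand and were tested. IL10, NFKB1, TNF, TLR2, TLR4, CLDN4 and PGLYRP1 were not among them, so the values below do not cover these immune genes. The 13 were chosen in part for their level or difference in these calves (among them RGS2 and CCL14) and in part from earlier work (STAT3). As a set they are therefore no independent evidence. The 4 with an unadjusted p under 0.05 were chaperones and an actin. CANX (ENSBTAG00000048107), calnexin, ranged from 561 to 724 CPM in TRT0 (median 657) and from 613 to 929.8 CPM in TRT12 (median 873). The mean difference in CPM was 161.6 (exact two-sided permutation test, unadjusted p = 0.00333, edgeR adjusted p = 0.372). HSPA8 (ENSBTAG00000013162), the constitutive Hsp70, ranged from 684 to 926 CPM in TRT0 (median 851) and from 739.8 to 1397 CPM in TRT12 (median 1062), with a mean difference of 211 CPM (exact permutation test, p = 0.00695, edgeR adjusted p = 0.372). ACTG1 (ENSBTAG00000006189), cytoplasmic actin, differed by 295 CPM (exact permutation test, p = 0.00827) and CALR, calreticulin, by 217 CPM (exact permutation test, p = 0.0123). These exact p values are unadjusted and take no account of dam parity. Adjusted over the 13 genes, the exact permutation p was 0.0358 for CANX, HSPA8 and ACTG1 and 0.0401 for CALR. In each of these genes 7 or 8 TRT12 calves were above the TRT0 median, and the lowest TRT12 calf lay within the TRT0 range or below it.

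The other 9 tested study genes had an unadjusted exact permutation p of 0.216 or more. DES (ENSBTAG00000005353), the intermediate filament of muscle, had 1562 ± 377 CPM in TRT0 and 1335 ± 365 CPM in TRT12, and STAT3 (ENSBTAG00000021523), a signalling factor, 265 ± 56.6 CPM in TRT0 and 282 ± 50.4 CPM in TRT12 (SD, n = 9 each). The iron exporter SLC40A1 (ENSBTAG00000010498) stood at 0.20 ± 0.18, the endocytic receptor LRP1 (ENSBTAG00000010830) at 0.07 ± 0.11, the scaffold AHNAK (ENSBTAG00000013468) at −0.05 ± 0.10, the protease inhibitor A2M (ENSBTAG00000018137) at −0.04 ± 0.13 and the tropomyosin TPM2 (ENSBTAG00000011424) at 0.00 ± 0.13. The chemokine CCL14 (ENSBTAG00000010738) stood at −0.11 ± 0.29. The estimates of AHNAK, A2M, TPM2 and CCL14 changed side in at least 1 alternative.

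The other lists had 0 to 3 genes at an unadjusted p under 0.05 on the higher side. Among all symbol genes the shares were 9.99% higher and 3.63% lower. Cytosolic ribosomal proteins had 1 of 55 at an unadjusted p under 0.05 (1.82%) and a median of 0.08, with RPL28 (ENSBTAG00000023343) at 0.26 ± 0.12 and RPLP2 (ENSBTAG00000001777) at 0.28 ± 0.18. Growth factor receptors and the IGF system had 0 of 9, with IGF2 (ENSBTAG00000013066) at −0.33 ± 0.18 and IGF2R (ENSBTAG00000002402) at −0.14 ± 0.11. Iron and metal handling had 2 of 12 (16.7%), the zinc and iron transporter SLC39A14 (ENSBTAG00000019225) at 0.27 ± 0.11 and the transferrin receptor TFRC (ENSBTAG00000032719) at 0.40 ± 0.19. Without TRT12 replicate 6 TFRC stood at 0.25. This count was 0 without TRT12 replicates 6 or 9 and 1 without TRT0 replicates 1, 6, 7 or 9 or TRT12 replicates 4 or 7. The divalent metal transporter SLC11A2 (ENSBTAG00000032914) stood on the other side at −0.61 ± 0.30, and at −0.40 without TRT0 replicate 3. Immediate early genes had 1 of 8 (12.5%), the survival factor MCL1 (ENSBTAG00000015154) at 0.30 ± 0.10. That list had 4 positive and 4 negative members and a median of −0.013. Hypoxia genes had 2 of 10 (20%), PGK1 (ENSBTAG00000000894) at 0.29 ± 0.11 and HIF1A (ENSBTAG00000020935) at 0.24 ± 0.10. Of the hypoxia list, 4 members were positive and 6 negative, with a median of −0.0075. The hypoxia count was 1 without the calves of lane 3, TRT0 replicates 3 or 6 or TRT12 replicates 1 or 8. Glucocorticoid-responsive genes had 1 of 5 (20%) on the lower side, HIF3A (ENSBTAG00000018948) at −0.38 ± 0.17. The other 4 members had positive values, and the list median was 0.17. Wound response genes had 3 of 11 higher (27.3%) and 1 lower (9.09%). PLAT (ENSBTAG00000001244), the tissue plasminogen activator, ranged from 42.0 to 123 CPM in TRT0 (median 51.8) and from 48.3 to 179 CPM in TRT12 (median 103), with a log2 fold change of 0.70 ± 0.21. The adhesion receptor CD44 (ENSBTAG00000011578) stood at −0.24 ± 0.11 and the annexin partner S100A10 (ENSBTAG00000015147) at 0.29 ± 0.13.

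Estimates within H and within C calves were set side by side to see whether dam parity bears on the treatment difference. The interaction of treatment and parity gave 0 called genes with the quasi-likelihood test, 555 genes (3.94%) at an unadjusted p under 0.05 and a lowest adjusted p of 0.124. DESeq2 and the likelihood ratio test each called 1, as did the quasi-likelihood test without TRT12 replicate 3 or 7. Estimated within C calves, 755 genes were higher and 696 lower at an unadjusted p under 0.05, and within H calves 261 and 267, from 5 and 4 calves per treatment. The ER list had a median of 0.40 in C and 0.16 in H, glycolysis 0.38 and 0.07, and fibroblast and matrix genes 0.11 and −0.39. Interferon-stimulated genes went the other way, with 0.10 in C and 0.78 in H. That list had 4 genes, and TRT12 replicate 1, 1 of the 4 TRT12 H calves, had the highest IRF1 and PARP14. Without this calf the list median over both parities was 0.20 in place of 0.40. No test of the difference was made for a list.

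The gene with the lowest interaction p was RGS2 (ENSBTAG00000034366), a regulator of G-protein signalling. In TRT0 the 4 H calves had 0 to 1.44 CPM and the 5 C calves 4.04 to 10.2 CPM, whereas in TRT12 the H calves had 1.31 to 9.13 CPM and the C calves 0 to 2.20 CPM. The C and H calves did not overlap in TRT0 and overlapped in TRT12. RGS2 was singled out by its interaction p in these same calves, so this split is no independent support. How many of all tested genes split this way was not counted. Its log2 fold change was 2.51 in H and −2.75 in C, and −0.52 ± 0.64 over both (edgeR adjusted p = 0.851, adjusted p of the interaction 0.124). Values up to 2.28 CPM can stand for 3 counts or fewer here.

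A few unnamed genes were high in some calves only. ENSBTAG00000045494 had 1201, 718 and 157 CPM in 3 TRT0 calves, no more than 2.098 CPM in the other 6 and no more than 4.51 CPM in any TRT12 calf. In TRT6 it reached 775.9 and 263 CPM in 2 calves. Its log2 fold change of −6.72 ± 1.47 had an edgeR adjusted p of 0.372, which was 0.0222 with lane as a further term, and within lanes it was −8.86, 0.08 and −1.66. ENSBTAG00000045632, named after its values were seen, went the other way, with 207 to 2810 CPM in 6 TRT12 calves, no more than 6.09 CPM in the other 3 and at most 109 CPM in TRT0. It reached 782 and 1464 CPM in 2 TRT6 calves. TRT0 replicates 5 and 6 had the highest TRT0 values of both unnamed genes.

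**Figure D5:**
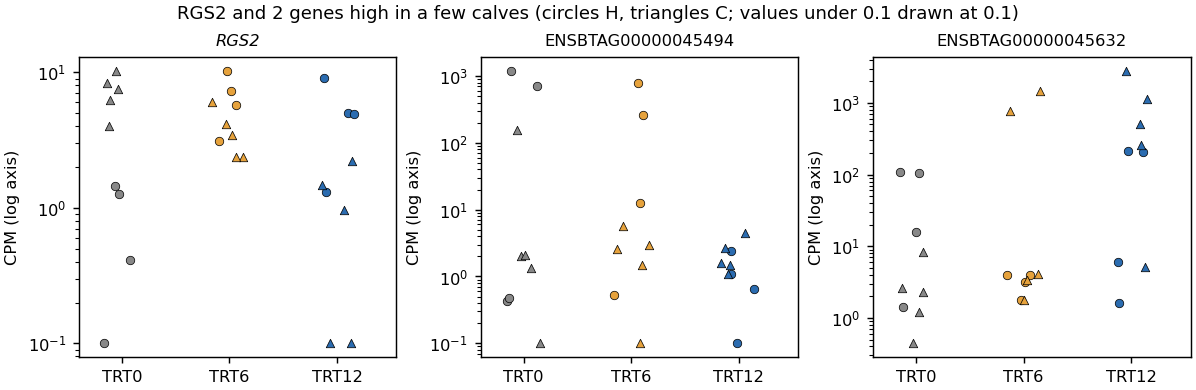
CPM per calf on a log axis (y) by treatment (x) for RGS2 and 2 unnamed genes, with circles for H and triangles for C calves and values under 0.1 drawn at 0.1. RGS2, singled out by its interaction p, is higher in C than in H calves of TRT0. The unnamed genes reach 1201 and 2810 CPM, with several calves of the same treatment high and others at a few CPM.

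Among other unnamed genes taken for their small p, ENSBTAG00000026400 had the lowest p of the comparison (edgeR adjusted p = 0.372). It ranged from 24.98 to 50.5 CPM in TRT0 (median 35.02) and from 43.3 to 71.8 CPM in TRT12 (median 59.3), and its log2 fold change was 0.68 ± 0.14. ENSBTAG00000010709 stood at 0.46 ± 0.10 and ENSBTAG00000010955 at −0.74 ± 0.18. All 9 TRT12 calves lay on 1 side of the TRT0 median in each of these 3 genes. Since they were taken for their small p in the same calves, this is no independent support.

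The 91 genes called by DESeq2 (74 higher, 17 lower) included 50 with a symbol, 48 higher and 2 lower. Each had an adjusted p of 0.372 with edgeR. They include the 15 higher genes of the naming rule, KAT6B, COL14A1, HSPA8, HSPA9, HSP90AA1, CALR, HYOU1, PDIA4, VIL1, ENO1, PSME1, CFI, PLAT, ACTG1, ACSL5, NSDHL and MCL1. The median size of their log2 fold change was 0.43.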

How the data were processed

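RNA of the colon of 27 male Holstein calves was sequenced, and 18 calves are compared here. The deposited table holds the authors' counts of reads for each Ensembl gene, not normalized. Per the labels' processing notes and the methods, paired 100 bp reads were aligned with TopHat2 2.1.1 to UMD3.1, sorted with SAMtools 1.4 and counted with HTSeq. Ambiguous reads were dropped and the strand setting is not stated, so near-identical copies (histones, ribosomal proteins, BOLA genes) and overlapping genes are uncertain. Treatment came from the labels, dam parity from the study's sample table and lane from the run name. Treatment groups differ in time since feeding.

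CPM was taken over the gene counts of a calf. Genes with 1 CPM in 5 of 9 calves of each treatment were tested with edgeR 4.0.16 (R 4.3.3), scaled by TMM factors (0.896 to 1.13), by its quasi-likelihood F test on parity plus treatment and, for the interaction, on their product. A call required a fold change of 1.2 and a Benjamini-Hochberg adjusted p no higher than 0.10. Log2 fold changes are TRT12 over TRT0, with SE and 95% intervals from the same fit. The tested genes among those the study names were also compared by an exact permutation test over 48620 divisions of the calves, without regard to dam parity. Scripts were tested on simulated counts.

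Named are called genes, the 15 symbol genes with the smallest p on each side (mean CPM of 5, fold of 1.2), the study's genes, up to 4 members of a list by p, genes called under an alternative and up to 2 identifiers without a symbol on each side. The rule, members and lists were chosen with earlier results of these data known. Symbols came from the study's tables. Some genes that the rule selects are not reported here, although they stay in the fits and counts. The alternatives were the likelihood ratio and exact tests, a robust fit, DESeq2 1.42.0, limma 3.58.1 voom with and without sample weights, other scalings and filters, all 27 calves, no parity term, lane as a term or left out, and each calf left out. Values within a lane are differences of mean log2 CPM without a parity term. Python 3.11.15, numpy 2.4.6, scipy 1.17.1, pandas 2.3.3 and matplotlib 3.10.9 were used.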

Additional observations from a re-analysis of the deposited data

Results flagged for a closer look

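In 20 of 240 groups of 9 calves (120 genes in TRT0 and TRT12), 1 calf lay farther from its nearest neighbour than Dixon's 95% limit of 0.493 of the range allows, where chance alone flags about 1 in 20 groups. Causes were not tested.

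TRT12 replicate 1 was the outlying calf in 7 of the genes, always on the high side. It had 65.4 CPM of PSMA5 (next calf 47.0), 339 CPM of JAK1 (next 283) and 239.6 CPM of IRF1 (next 120.4). It also had 300.5 CPM of PARP14 (next 149), 151 CPM of PSME1 (next 104), 63.9 CPM of DUOX2 (next 17.6) and 164 CPM of ACSL5 (next 125).

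Other TRT12 calves stood apart in epithelial and muscle genes. Replicate 9 had 207 CPM of SLC9A3R1. Replicate 7 had 251 CPM of CA2 and 2194 CPM of DES. Replicate 6 had 248 CPM of CA1, replicate 8 had 249 CPM of SLC12A2 and replicate 4 had 39.98 CPM of CYP2B6.

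In TRT0, replicate 4 had 140.0 CPM of CA1 and 997 CPM of CLCA4, replicate 7 had 397 CPM of VIL1, and replicate 2 had 186 CPM of MCL1. Replicate 6 had 93.8 CPM of S100A12 and the lowest SLC39A14 value, 53.7 CPM. Replicate 9 had the lowest CFI value, 51.8 CPM.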

How the results depend on the processing

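The count of 0 called genes stayed 0 in most alternatives and became 1 with the likelihood ratio test, 2 with the exact test, 1 with lane as a term and 91 with DESeq2, and it ranged from 0 to 2 when a calf was left out (2 without TRT0 replicate 4, 1 without TRT0 replicate 9). Genes at an unadjusted p under 0.05 ranged from 578 to 963 on the higher side and from 408 to 855 on the lower side without a calf. Limma voom with sample weights gave 936 lower genes. The interaction gave 0 to 1 called genes without a calf, and 1 with the likelihood ratio test, the robust fit, DESeq2, no filter on low counts and all 27 calves. The count of genes with an interval within 2-fold stayed between 11751 and 12669.

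Of 120 genes followed, 114 kept their sign in every alternative fit other than those within 1 lane, and 95 kept it within each lane as well (11 changed sign within lane 1, 4 within lane 2 and 13 within lane 3). Without the calves of lane 3, AHNAK stood at 0.052 and MYH11 at 0.028. TPM2, at 0.00, took values of −0.00137 (exact test), −0.00188 (voom), −0.00199 (all 27 calves), −0.00203 (feeding time in hours), −0.00167 (no parity term), −0.017 (sample weights), −0.00617 (library totals) and −0.0037 (1 CPM in all 18 calves). PIGR took −0.0073 with voom, −0.00837 with library totals and −0.015 with lane as a term. Without a calf, A2M ranged from −0.088 to 0.028, TPM2 from −0.055 to 0.059, CCL14 from −0.25 to 0.037 and PIGR from −0.076 to 0.10. The CPM differences ranged from −11.8 to 80.4 for LRP1, −36.8 to 18.6 for TPM2, −1.03 to 0.18 for CCL14 and −334 to −136 for DES, whose exact permutation p was 0.0341 without TRT12 replicate 7. The causes were not tested. Of 16 lists with a median of 0.20 or more, 14 kept its sign, the exceptions being antimicrobial genes within lane 3 and lipid uptake genes within lane 3 and without TRT12 replicate 4.

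The scaling by TMM factors shifted the median of all genes by −0.02 when removed. Lists with 1 gene at an unadjusted p under 0.05 had 0 to 3 without a calf. Lane and parity were partly confounded. Within lane 3 the TRT0 calves were all C and the TRT12 calves all H, so its values cannot separate treatment from parity. No paired analysis was possible because the labels give no shared replicate numbers. With 9 calves per treatment, any difference inside a printed interval is left possible.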
